A study of Mus musculus with 8 samples.

Results

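The miR-379/410 cluster is a long run of miRNA hairpins in the imprinted Dlk1-Dio3 domain of mouse chromosome 12. Its miRNAs were compared between the hippocampus of BTBR mice and that of B6 control mice, as a whole and product by product. Members were chosen by name, as every arm of 40 listed miRNA numbers, and 49 of the 422 miRNAs in the count table met the rule, 24 of them 5p and 25 of them 3p products. Of the 40 numbers, 32 had at least 1 product in the table and 8 had no row. Small RNA libraries were sequenced from 4 B6 mice (C57BL/6J) and 4 BTBR mice (BTBR T+ Itpr3tf/J), all adult males of 12 weeks with no treatment named, and 1 library per mouse. BTBR is an inbred strain used as a model of idiopathic autism, so every difference below is one between 2 inbred strains and cannot be assigned to a single gene. All 49 members were tested, 46 had at least 10 counts in every library, and the lowest count was 2, for miR-544-5p.

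miRNAs are short RNAs that guide the silencing complex to mRNAs, largely by pairing of the seed, the bases 2 to 8 from their 5′ end. Each is processed from a hairpin, whose 5p arm, 3p arm or both may be kept. The Dlk1-Dio3 domain is imprinted: protein-coding genes such as Dlk1 and Rtl1 are expressed from the paternal chromosome, and the long non-coding RNAs Meg3, Rian and Mirg, with the miRNAs among them, from the maternal one. The miR-379/410 miRNAs are enriched in brain and neurons, and miR-134, the best studied, acts on dendritic spines through Limk1.

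In the GRCm38 build, the run from the miR-379 hairpin, chromosome 12 from 109709060 to 109709125, to the miR-410 hairpin, from 109743715 to 109743795, spans 34736 bases of the plus strand. Its distal members lie in Mirg, annotated from 109729764 to 109749460. The list also holds miR-370, whose hairpin starts 90802 bases before that of miR-379 in an intron of Rian, and miR-3072, after miR-410 in an exon of Mirg. RefSeq gave mature sequences on GRCm38.p6 for 46 of the 49 members, and none for miR-376c-3p, miR-485-5p and miR-487b-3p. Of the 46, 11 lay in Mirg introns, 6 in Mirg exons, 2 in a Rian intron and 27 outside annotated genes.

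The sequences below are not in order of level. The 6 most abundant members are miR-411-5p, miR-541-5p, miR-382-5p, miR-379-5p, miR-381-3p and miR-410-3p. The others are miR-300-3p, miR-154-5p, miR-495-3p and miR-411-3p, in which the strains did not overlap, and miR-379-3p, which has the seed of miR-411-3p. All run 5′ to 3′, with the seed in capitals, and are placed on the plus strand of chromosome 12.
miR-411-5p: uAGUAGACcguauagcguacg
miR-379-5p: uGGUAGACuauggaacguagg
miR-541-5p: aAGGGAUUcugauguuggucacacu
miR-382-5p: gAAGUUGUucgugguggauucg
miR-381-3p: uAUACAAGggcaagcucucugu
miR-300-3p: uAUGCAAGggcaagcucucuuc
miR-410-3p: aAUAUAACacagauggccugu
miR-411-3p: uAUGUAACacgguccacuaacc
miR-379-3p: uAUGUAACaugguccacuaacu
miR-154-5p: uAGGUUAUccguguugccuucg
miR-495-3p: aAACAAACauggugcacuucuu

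The 46 sequences were 20 to 25 bases long, 29 of them 22 bases, and began with A in 20 cases and with U in 16. They held 45 distinct seeds, so that only miR-379-3p and miR-411-3p, from neighbouring hairpins, shared one. These 2 were identical at 20 of 22 bases and differed by U10C and U22C, where the first letter is the base of the first-named miRNA, the number its position from 1 at the 5′ end, and the last letter the base of the other. Near relatives were more frequent than shared seeds. miR-379-5p and miR-411-5p, the opposite arms of the same hairpins, differed in the seed by G2A. miR-300-3p and miR-381-3p were identical at 19 of 22 bases and differed in the seed by G4A. miR-154-3p and miR-369-3p differed there by C4A, and miR-376b-3p and miR-376a-3p by A4G. miR-379-3p and miR-411-3p each differed in the seed from miR-410-3p by G4A. Reads of such relatives could be shared in counting. For miR-379-3p, miR-411-3p and miR-376b-5p the supplementary table of the study gives fractional counts in the same libraries, so their values are uncertain to the extent that reads were split with another miRNA. No member duplicated the counts of another miRNA across the 8 libraries, which does not bear on such partial sharing.

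Total counts were 5078301 to 5792967 in B6 and 2247482 to 7904990 in BTBR libraries, the lowest in BTBR replicate 2. Levels are given as CPM, counts scaled to a common library size by the TMM method. Replicate numbers name mice, and the labels do not say whether equal numbers pair them. Of the markers listed for cell types, 29 of 30 were measured, none of them at 0 in a library, and the 6 neuronal miRNAs summed to 19957 to 25014 CPM in B6 and 20864 to 32735 CPM in BTBR, with 0 of 6 called. The 4 red blood cell miRNAs summed to 303 to 853 CPM in B6 and 531 to 1371 CPM in BTBR, with 1 of 4 called. The 6 choroid plexus miRNAs summed to 39140 CPM in B6 replicate 1 and to 5107 to 16060 CPM in the other mice, with 0 of 6 called. The 3 oligodendrocyte miRNAs summed to 2238 to 4256 CPM in B6 and 2289 to 2922 CPM in BTBR, the 5 measured of 6 immune cell miRNAs to 1045 to 1149 and 892 to 1746 CPM, and the 5 of vessels and meninges to 8873 to 13399 and 6864 to 10720 CPM. The part of these cell types in the results was not tested. In whole hippocampus, fewer cells of a type and less RNA per cell cannot be told apart.

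As a whole, the cluster made up between 1.68 and 2.52% of the miRNA counts of a mouse. Summed over the 49 members, it measured 18671, 18495, 19995 and 20844 CPM in B6 replicates 1 to 4 and 23011, 19109, 21747 and 23971 CPM in BTBR replicates 1 to 4. BTBR replicates 1, 3 and 4 were above all B6 mice, and BTBR replicate 2 lay within the B6 range. The means were 19501 ± 1118 CPM for B6 and 21960 ± 2108 CPM for BTBR (SD, n = 4), a ratio of 1.13. No p is given for a sum over chosen members. The within-strain SD of the summed level, pooled over both strains on the log2 scale, was 0.12 beside the log2 ratio of 0.17. An SD of single mice is no test of a difference of means. The log2 ratio was 0.23 without BTBR replicate 2 and 0.13 without BTBR replicate 4. As a share of all counts, without TMM, the cluster took 1.68, 2.18, 1.75 and 1.82% in B6 and 2.39, 1.89, 2.50 and 2.52% in BTBR, so that the strains overlapped on this scale too and the log2 ratio was 0.33. Leaving out miR-370 and miR-3072 gave a log2 ratio of 0.17. The depth behind these shares was 42566 cluster counts in BTBR replicate 2 and 86829 to 199244 in the other mice.

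The other maternally expressed miRNAs of the domain served as the nearest comparison. They lie upstream of the cluster, many of them antisense to Rtl1, among them miR-127, which directs cleavage of the Rtl1 mRNA, and 17 products were measured. They summed to 31086 ± 5289 CPM in B6 mice and to 33290 ± 3298 CPM in BTBR mice (SD, n = 4), and their strains overlapped. The ratio of the miR-379/410 sum to this sum was 0.641 ± 0.108 in B6 and 0.668 ± 0.118 in BTBR mice. It ranged from 0.482 to 0.727 in B6 and from 0.545 to 0.772 in BTBR, so that the strains overlapped in this ratio as well.

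**Figure D1:**
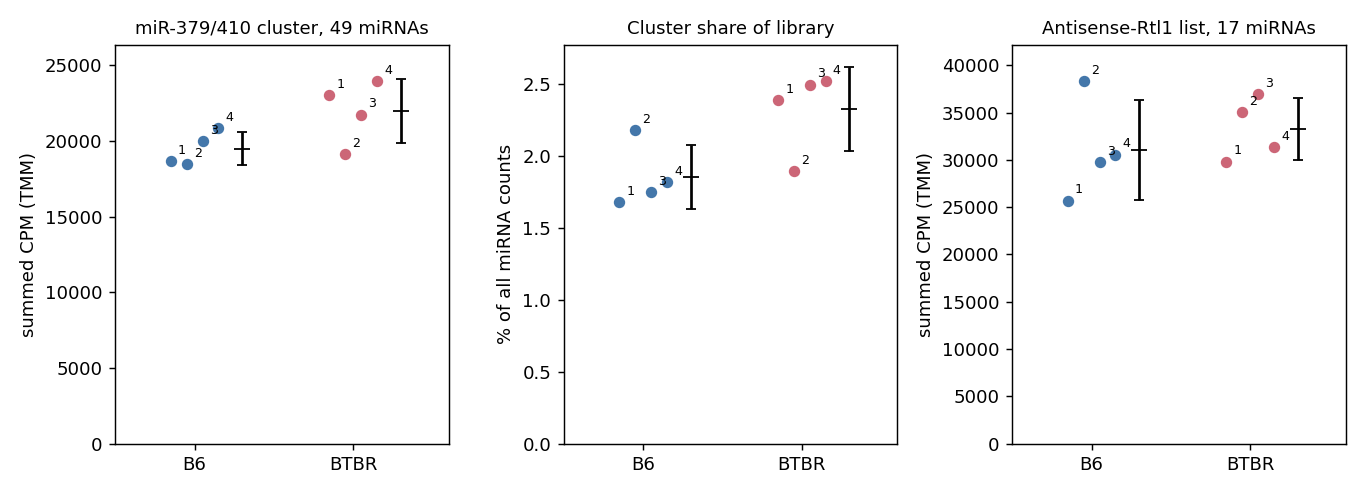
Points are single mice, numbered by replicate, and bars are the mean and SD of 4 mice per strain: summed CPM of the 49 miR-379/410 members (left), their percent of all miRNA counts (middle) and summed CPM of the 17 antisense-Rtl1 miRNAs (right), all axes from 0. In the left panel BTBR replicates 1, 3 and 4 lie above the B6 mice and BTBR replicate 2 lies among them.

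Within the cluster, levels were spread over a 2228-fold range, from 1.94 CPM for miR-544-5p to 4325 CPM for miR-411-5p, as means over the 8 mice. miR-411-5p alone gave 20.9% of the cluster and stood at rank 28 of all 422 miRNAs. miR-541-5p followed with 3071 CPM, then miR-382-5p with 2461 CPM, miR-379-5p with 2210 CPM and miR-381-3p with 1868 CPM, and these 5 together made up 67.2% of the cluster. miR-410-3p, the most distal of the original cluster, had 1611 CPM. CPM compare members with no correction for how well each sequence is captured in library preparation or for its length, and the part of either was not tested. In all, 6 members averaged at least 1000 CPM, 11 between 100 and 1000, 23 between 10 and 100 and 9 under 10.

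Ranges of neighbours in this order could overlap between mice. In B6 mice miR-382-5p had 2510, 1557, 3115 and 2583 CPM, in a range that overlapped the 1792, 1296, 2276 and 2221 CPM of miR-379-5p. Within each B6 mouse, though, miR-382-5p was above miR-379-5p. The range of miR-382-5p also overlapped the 2394, 3165, 2767 and 3008 CPM of miR-541-5p, and their order differed between mice. miR-411-5p, with 3899, 3734, 3841 and 4852 CPM, was above each of these in every B6 mouse. In BTBR mice miR-411-5p had 5569, 3290, 4693 and 4725 CPM, and in replicate 2 it was below miR-541-5p, which had 2980, 3720, 3070 and 3464 CPM.

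A gradient of levels along the chromosome was not evident. The 5 most abundant members came from both ends and the middle, and across the 43 placed members between miR-379 and miR-410 the log2 mean level and the distance from miR-379 had a Pearson's r of 0.12. The fold change between strains had an r of −0.02 with the same distance. Both are descriptions across miRNAs of the same libraries, which are not independent, and hairpins here give up to 2 members each.

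**Figure D2:**
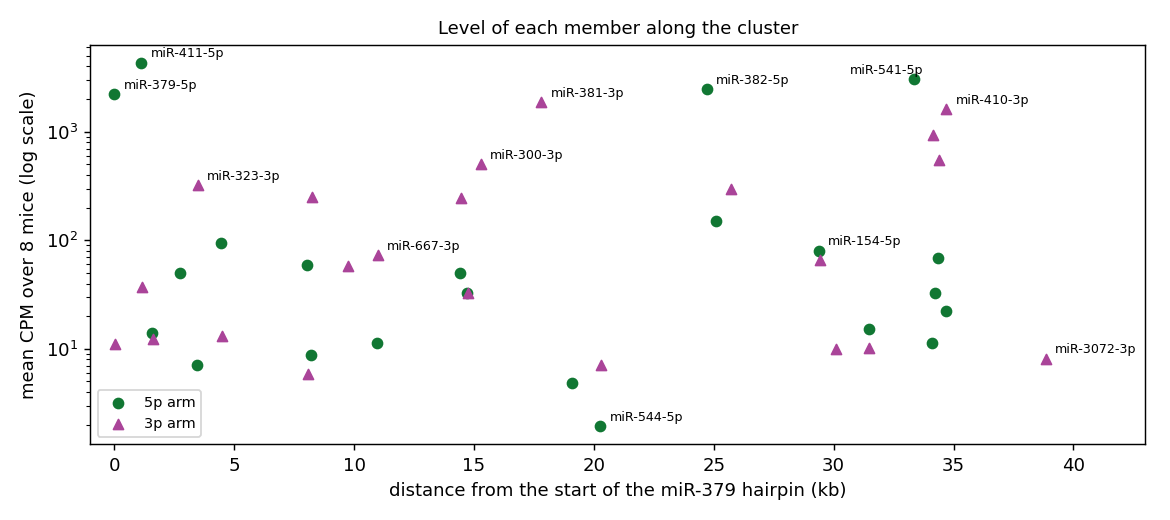
Mean CPM over the 8 mice (log axis) of each placed member against the distance of its mature sequence from the start of the miR-379 hairpin in kb, with 5p products as circles and 3p products as triangles. miR-370, which lies upstream, is outside the plot. Abundant members such as miR-411-5p (4325 CPM) and miR-541-5p (3071 CPM) stand beside members under 100 CPM along the whole length.

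None of the 49 members passed the threshold between strains (0 at an adjusted p of 0.1, edgeR quasi-likelihood F-test, Benjamini-Hochberg over the 422 miRNAs), where 1.66% of all miRNAs did. The lowest adjusted p among members was 0.254. DESeq2's Wald test called 1 member, miR-154-5p, with an adjusted p of 0.0885 by Benjamini-Hochberg, against 5.65% of the 372 miRNAs that tool adjusted. Without adjustment, 4 members had a p under 0.05, all higher in BTBR, which is 4 of 49 against 7.35% of all miRNAs in that direction. In 4 members all BTBR mice exceeded all B6 mice, against 3.32% of all miRNAs, and in 0 members did all BTBR mice lie below, against 3.32% as well.

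More members lay above 0 than below it, none of them past the threshold. Their median log2 fold change, BTBR minus B6, was 0.17 against 0.02 over all miRNAs, and 37 of 49 were above 0 against 50.9% of all miRNAs. The 6 neuronal marker miRNAs, listed apart from the cluster, had a median of 0.23 with 5 of 6 above 0, and their sums a ratio of 1.16 against the 1.13 of the cluster. Whether the difference in neuronal miRNAs has a part in that of the members was not tested. The members share a locus and the same 8 libraries, so they are not 37 separate observations. In the antisense-Rtl1 list 11 of 17 were above 0, the median was 0.13 and 0 were called. Without B6 replicate 1, the library rich in choroid plexus miRNAs, the members' median was 0.08 against −0.04 over all miRNAs, 31 were above 0 and 0 members had an unadjusted p under 0.05. Without BTBR replicate 2 the median was 0.20 against −0.03 over all miRNAs, 38 were above 0 and 8 members had such a p. In these fits neither count was taken over all miRNAs. Whether the counts changed more in the members than in the whole table was not tested.

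The abundant members bounded the difference. All 17 members with a mean of at least 100 CPM had a 95% interval of the log2 fold change inside −1 to 1, with standard errors (SE) of 0.16 to 0.25, and 14 of the 17 were above 0 with a median of 0.22. Among the 32 members under 100 CPM, 9 had such an interval, and for miR-544-5p it ran from −1.42 to 2.17.

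**Figure D3:**
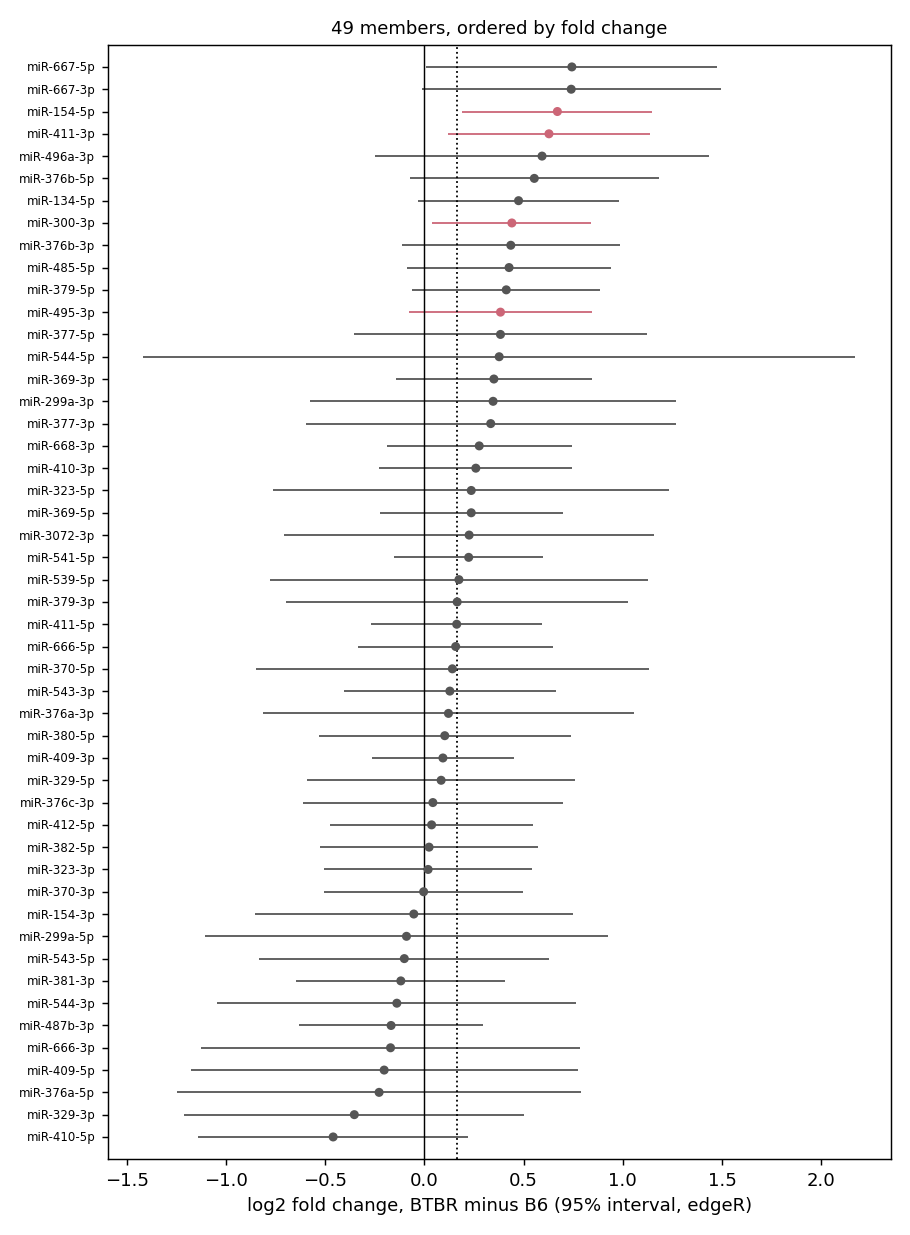
Log2 fold change (BTBR minus B6) of each of the 49 members with its 95% interval from edgeR, ordered by size; the solid line is 0 and the dotted line the members' median of 0.17. The 4 members in red are those in which all BTBR mice exceeded all B6 mice, and 37 of the points lie right of 0.

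In 4 products the strains separated fully. miR-154-5p, from a Mirg intron, had 55.1, 75.4, 59.1 and 57.7 CPM in B6 replicates 1 to 4 and 79.1, 114, 103 and 97.2 CPM in BTBR replicates 1 to 4. The nearest mice were B6 replicate 2 and BTBR replicate 1. Its means were 61.9 ± 9.22 and 98.6 ± 14.8 CPM (SD, n = 4), with a log2 fold change of 0.67 (SE 0.22, adjusted p = 0.254, edgeR quasi-likelihood, Benjamini-Hochberg). Full separation of 4 against 4 mice fixes the p of a two-sided exact permutation test at 0.0286, the smallest that the 70 assignments allow, so for these 4 miRNAs that test only restates how they were selected. Over the alternatives its adjusted p lay between 0.0885 and 0.676.

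miR-411-3p, the minor arm of the most abundant hairpin, had 30.5, 26.9, 33.1 and 26.5 CPM in B6 and 51.6, 37.7, 50.1 and 41.4 CPM in BTBR mice. All BTBR mice were above all B6 mice, in counts that may include split reads, as given above. The log2 fold change was 0.63 (SE 0.23, adjusted p = 0.313 edgeR quasi-likelihood, Benjamini-Hochberg). The abundant arm of the same hairpin, miR-411-5p, had a log2 fold change of 0.16 (SE 0.20, adjusted p = 0.792), and its strains overlapped. That value was 0.05 without BTBR replicate 1, 0.08 without B6 replicate 1 and 0.26 without BTBR replicate 2.

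miR-300-3p, one seed base away from miR-381-3p, had 355, 493.5, 432 and 423 CPM in B6 and 524, 553, 589 and 647 CPM in BTBR mice. The lowest BTBR mouse was close above the highest B6 mouse. Its log2 fold change was 0.44 (SE 0.18, adjusted p = 0.439, edgeR quasi-likelihood, Benjamini-Hochberg). Its relative miR-381-3p had 2025, 1559, 2059 and 2136 CPM in B6 and 2404, 1071, 1751 and 1936 CPM in BTBR mice, at a log2 fold change of −0.12 (SE 0.24). BTBR replicate 2 was the lowest mouse for miR-381-3p, and the value was 0.03 without it. The ratio of miR-300-3p to miR-381-3p was 0.176, 0.317, 0.210 and 0.198 in B6 and 0.218, 0.516, 0.336 and 0.334 in BTBR mice, and the strains overlapped.

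miR-495-3p had 50.9, 52.5, 52.1 and 47.0 CPM in B6 and 62.1, 55.2, 72.9 and 73.6 CPM in BTBR mice. The B6 mice lay close together, with an SD of 2.53 CPM. The log2 fold change was 0.38 (SE 0.21, adjusted p = 0.543, edgeR quasi-likelihood, Benjamini-Hochberg).

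The largest positive fold changes were those of both arms of miR-667, at 0.74 each. miR-667-5p had 8.64, 7.19, 12.3 and 5.84 CPM in B6 and 12.9, 11.2, 14.5 and 17.9 CPM in BTBR mice (SE 0.34). BTBR replicate 2 was below B6 replicate 3, so the strains overlapped by 1 mouse on each side. miR-667-3p had 50.7, 76.1, 52.9 and 39.1 CPM in B6 and 86.7, 158, 53.6 and 69.2 CPM in BTBR mice (SE 0.34). BTBR replicate 2 stood high, and without it its log2 fold change was 0.33. For both arms the adjusted p was 0.451 (edgeR quasi-likelihood, Benjamini-Hochberg).

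The 3 lowest fold changes were those of miR-410-5p, miR-329-3p and miR-376a-5p. miR-410-5p had 19.96, 20.9, 25.8 and 37.3 CPM in B6 and 14.8, 25.6, 15.0 and 20.5 CPM in BTBR mice, at a log2 fold change of −0.46 (SE 0.31). The strains overlapped, with B6 replicate 4 the highest, and without that mouse the value was −0.28. miR-329-3p had 12.7, 22.1, 13.3 and 11.2 CPM in B6 and 12.3, 8.98, 6.01 and 18.5 CPM in BTBR mice, at a log2 fold change of −0.35 (SE 0.39). The value was −0.75 without BTBR replicate 4 and −0.08 without B6 replicate 2. miR-376a-5p had 25.3, 45.8, 41.0 and 28.3 CPM in B6 and 33.5, 5.84, 42.1 and 37.3 CPM in BTBR mice, at a log2 fold change of −0.23 (SE 0.47). BTBR replicate 2 was far below the other mice, and without it the value was 0.07.

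Among the abundant members, miR-379-5p had 2131, 2856, 2264 and 2847 CPM in BTBR mice, against the 1296 to 2276 CPM of B6 given above, and a log2 fold change of 0.41 (SE 0.22, adjusted p = 0.521, edgeR quasi-likelihood, Benjamini-Hochberg). BTBR replicates 2 and 4 were above all B6 mice, and replicates 1 and 3 lay within their range. miR-541-5p had a log2 fold change of 0.22 (SE 0.17), miR-410-3p 0.26 (0.22), miR-369-3p 0.35 (0.23), miR-668-3p 0.28 (0.21) and miR-409-3p 0.09 (0.16). miR-382-5p was at 0.02 (0.25), miR-323-3p at 0.02 (0.24) and miR-487b-3p at −0.17 (0.21). In each of these the strains overlapped. Single mice moved several of them: without B6 replicate 1, miR-541-5p was at 0.08 and miR-668-3p at 0.15, and without B6 replicate 2, miR-668-3p was at 0.45, miR-410-3p at 0.42 and miR-369-3p at 0.53. Without BTBR replicate 3, miR-410-3p was at 0.13, and without BTBR replicate 2, miR-487b-3p was at −0.05. In 3 the direction turned: without BTBR replicate 4, miR-382-5p was at −0.21 and miR-409-3p at −0.0053, and without BTBR replicate 3, miR-323-3p was at −0.10, and miR-382-5p and miR-323-3p were also below 0 without some other single mice.

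miR-134-5p and miR-485-5p, which are known to act at synapses, fall outside the rule for named miRNAs and were added after their values were seen. miR-134-5p had 119, 144, 110 and 135 CPM in B6 and 119, 192, 175 and 221 CPM in BTBR mice. BTBR replicates 2, 3 and 4 were above all B6 mice and replicate 1 was not. Its log2 fold change was 0.47 (SE 0.23, adjusted p = 0.494, edgeR quasi-likelihood, Benjamini-Hochberg). miR-485-5p had 113, 114, 126 and 158 CPM in B6 and 196, 197, 114 and 178 CPM in BTBR mice, at a log2 fold change of 0.43 (SE 0.23). Here BTBR replicate 3 was the mouse within the B6 range.

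**Figure D4:**
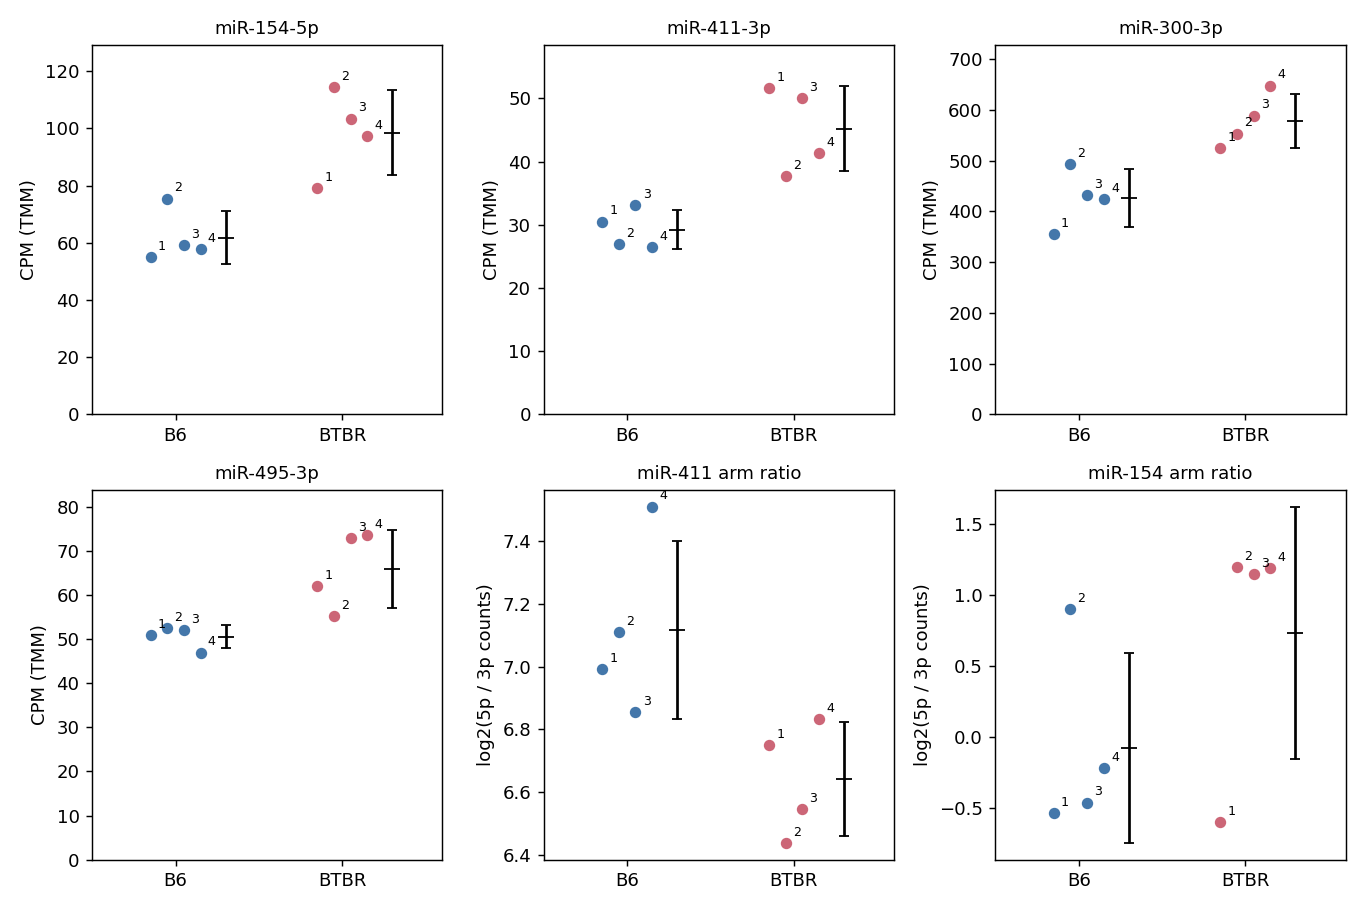
CPM (from 0) of miR-154-5p, miR-411-3p, miR-300-3p and miR-495-3p, and log2 ratios of 5p to 3p counts of the miR-411 and miR-154 hairpins, with 1 numbered point per mouse and the mean and SD of 4 mice. In the first 5 panels the strains do not overlap, and in the miR-154 ratio panel BTBR replicate 1 lies with B6 replicates 1, 3 and 4.

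Mice differed in many members at once. For each member the deviation of log2(CPM + 0.5) from its mean over the 8 mice was taken, and the median over the 49 members was −0.13, −0.04, 0.01 and −0.12 in B6 replicates 1 to 4 and 0.16, −0.19, 0.25 and 0.18 in BTBR replicates 1 to 4. BTBR replicates 1, 3 and 4 stood highest and BTBR replicate 2 lowest. Over the antisense-Rtl1 list the same medians were −0.17, 0.20, −0.03 and −0.09 in B6 and −0.11, 0.16, 0.30 and 0.32 in BTBR mice. BTBR replicates 3 and 4 thus stood high there too. Over all miRNAs the medians lay between −0.02 and 0.04. The number of members above their own mean was 14, 20, 25 and 19 in B6 and 37, 22, 32 and 37 in BTBR mice. Neither this count nor those that follow were taken over all miRNAs. BTBR replicate 2, the shallowest library, was also the most uneven over the members. It was the lowest of the 8 mice for 17 members and the highest for 10, and the SD of its deviations was 0.686 against 0.286 to 0.550 in the other mice. It was 2.19 below the mean for miR-376a-5p, where 1 unit is a doubling, and 1.23 above it for miR-667-3p. In miR-376a-3p it had 8.53 CPM against 23.1 to 44.3 CPM in the other mice, from 19 counts, and in miR-376c-3p 44.0 CPM against 86.3 to 123 CPM.

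The spread between mice of one strain depended on the level of a member. The median within-strain SD of log2 CPM was 0.387 over the members and 0.443 over all miRNAs. Scaling each library to its cluster sum left the members' median SD at 0.363. It was 0.306 for members of at least 100 CPM and 0.517 for those below.

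**Figure D5:**
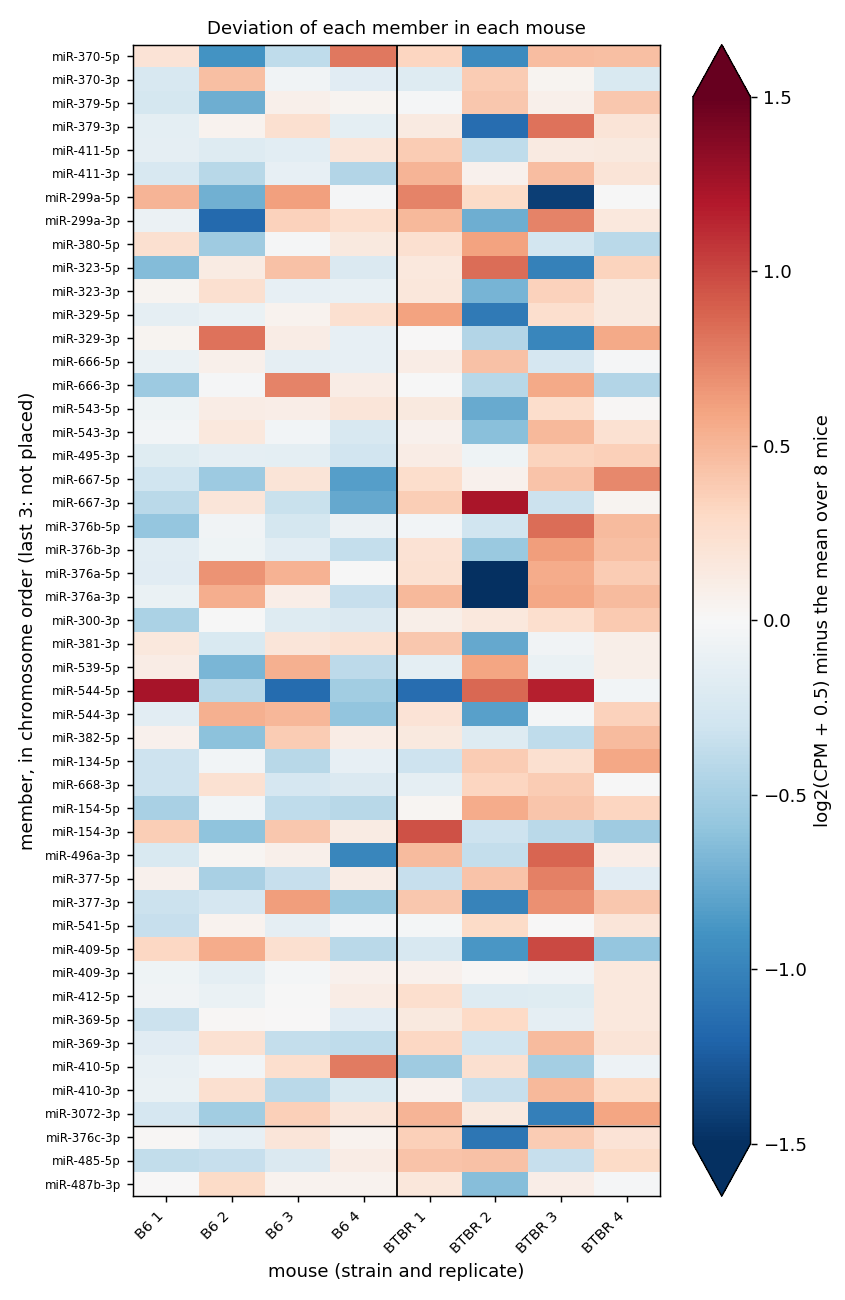
Each row is a member in chromosome order, with the 3 unplaced members last, and each column a mouse; the colour is log2(CPM + 0.5) minus the member's mean over the 8 mice, clipped at −1.5 and 1.5. BTBR replicates 1, 3 and 4 are mostly red (32 to 37 of 49 members above their mean), and BTBR replicate 2 is mixed, with its lowest values in the 2 arms of miR-376a.

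Both arms were measured for 17 hairpins of the cluster, and 1 arm for 15, of which 7 gave the 5p and 8 the 3p product. The 5p share of a hairpin's counts exceeded 80% in every mouse in 3 hairpins and was under 20% in every mouse in 7, and the other 7 lay between or crossed these limits. miR-379 and miR-411 kept the 5p arm, at 99.5% and 99.1% on average, and miR-410 and miR-409 the 3p arm, with 5p shares of 1.49% and 1.21%. The neighbours miR-379 and miR-411, related in sequence, were alike in this. miR-376a and miR-154 gave both arms, with mean 5p shares of 49.1% and 55.3%.

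The arm ratio needs no scaling between libraries, since both products are counted in the same library. Of 99 hairpins with both arms measured in the whole table, 0 passed an adjusted p of 0.1 (0%, limma on the log2 ratio with Benjamini-Hochberg adjustment), 6 had an unadjusted p under 0.05, and none of these was a member. For miR-411 the log2 ratio of 5p to 3p was 6.99, 7.11, 6.85 and 7.51 in B6 and 6.75, 6.44, 6.55 and 6.83 in BTBR mice. All BTBR mice were below all B6 mice. Of the 99 hairpins, 1.01% were separated in this direction, which is miR-411 alone, and miR-411 was named as one of the 3 member hairpins with the smallest arm-ratio p. The difference was −0.47 (SE 0.27, adjusted p = 0.899, limma with Benjamini-Hochberg). For miR-410 the difference was −0.69 (SE 0.43).

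For miR-154 the log2 ratio was −0.53, 0.90, −0.46 and −0.22 in B6 and −0.60, 1.20, 1.15 and 1.19 in BTBR mice. The mice fell into 4 with a ratio below 0 and 4 near 1, and each set held both strains. The difference between strains was 0.81 (SE 0.50, adjusted p = 0.899, limma with Benjamini-Hochberg). The 3p arm itself, miR-154-3p, had 79.8, 40.3, 81.5 and 67.2 CPM in B6 and 119.8, 49.8, 46.6 and 42.5 CPM in BTBR mice, at a log2 fold change of −0.05 (SE 0.37). It was −0.54 without BTBR replicate 1 and between 0.02 and 0.075 without BTBR replicate 2, 3 or 4. Over the 17 hairpins, both arms had a fold change of the same sign in 7, and in all 7 both were above 0.

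The 2 members with 1 seed differed in level. miR-379-3p had 9.40, 10.9, 12.5 and 9.44 CPM in B6 and 11.5, 4.49, 18.8 and 12.03 CPM in BTBR mice, at a log2 fold change of 0.17 (SE 0.39), which was −0.14 without BTBR replicate 3 and 0.39 without BTBR replicate 2. The difference from the fold change of miR-411-3p was not tested. Its BTBR mice spread to both sides of the B6 range. Its level was 0.308, 0.404, 0.378 and 0.356 of that of miR-411-3p in B6 mice and 0.223, 0.119, 0.375 and 0.291 in BTBR mice. BTBR replicate 3 was within the B6 range and the other 3 were below it.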

How the data were processed

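Small RNA of the hippocampus of 4 B6 and 4 BTBR mice was sequenced (Illumina TruSeq small RNA). The authors removed adapters, checked reads with FastQC 0.11.2 (submitters' processing notes), mapped them to GRCm38 with sRNAbench (Bowtie) and counted reads lying within miRBase release 21 coordinates. The deposited values are counts per miRNA, without normalization, in whole numbers. The supplementary table of the study gives some of the same counts as fractions, as arise when a read is split between miRNAs it maps to, and the deposited counts appear to be these values rounded. All 8 columns were used and 0 left out. Without molecular identifiers, tests cover the spread between mice. The labels do not describe litters or cages.

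Counts of all 422 miRNAs were fitted with edgeR 4.0.16 in R 4.3.3 (TMM, quasi-likelihood test, no covariate, two-sided), with Benjamini-Hochberg adjustment and a threshold of 0.1, as in the study. The SE and 95% interval of each fold change come from that fit. Single miRNAs were also compared by an exact permutation test of log2(CPM + 0.5) over 70 assignments, and arm ratios by limma 3.58.1 on log2((5p + 0.5)/(3p + 0.5)). Steps were tested on simulated data. DESeq2 1.42.0 and limma-voom, other scalings, filters on low counts, the replicate number as a block and each mouse left out were alternatives. Python 3.11.15 with matplotlib 3.10.9 drew the plots. Sequences are from RefSeq (GRCm38.p6) and gene positions from GENCODE.

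Members and lists were chosen with earlier results of these data known. Members are named if among the 12 most abundant, with an unadjusted p under 0.05, with strains that do not overlap, with the 3 highest or 3 lowest fold changes, an arm of the 3 hairpins with the smallest arm-ratio p, or sharing a seed. Others named with values, such as miR-134-5p, miR-485-5p, miR-376a-3p, miR-376c-3p and miR-544-5p, were added after their values were seen.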

Additional observations from a re-analysis of the deposited data

Results flagged for a closer look

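Of 52 groups of 4 mice examined, 5 held a mouse far from the other 3, where chance gives about 1 in 20. In B6 mice, miR-411-5p had 4852 CPM in replicate 4 against 3734 to 3899 CPM in the others. miR-487b-3p had 600.2 CPM in B6 replicate 2 against 497 to 513 CPM, and miR-668-3p had 340.6 CPM in the same mouse against 233 to 249 CPM. In BTBR mice, miR-154-3p had 119.8 CPM in replicate 1 against 42.5 to 49.8 CPM, and the log2 ratio of 5p to 3p of miR-154 was −0.60 there against 1.15 to 1.20.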

How the results depend on the processing

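The count of members past the threshold was 0 in every alternative of edgeR and limma-voom and 1 with DESeq2's Wald test, which also gave 1 among the 22 named members. The count over all miRNAs, 7, became 4 with library size only, 21 with DESeq2's Wald test, 3 with the replicate number as a block, 4 at a threshold of 0.05, and 3 to 13 with 1 mouse left out. The cause was not tested. The summed level's log2 ratio of 0.17 became 0.33 with library size only, and lay between 0.13 and 0.23 with 1 mouse left out. The count of arm ratios past the threshold lay between 0 and 1 with 1 mouse left out, the 1 being miR-1298 without B6 replicate 4, which is no member.

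Scaling by library size only shifted the median of all miRNAs to 0.15 and scaling to the cluster sum to −0.16, and the members' median stood 0.20 and 0.16 above these, with 43 and 25 members above 0. With library size only, miR-154-3p turned to 0.13 and miR-381-3p to 0.055. Scaled to the cluster sum, miR-323-3p turned to −0.18, miR-379-3p to −0.030, miR-382-5p to −0.15, miR-409-3p to −0.072 and miR-411-5p to −0.015. That scaling removes by design any difference that the members share. The count of 25 and these turns are therefore relative to the cluster and do not test its own difference. miR-323-3p turned to −0.0085 with limma-voom and −0.018 with the replicate block. With 1 mouse left out, ranges crossed 0 for miR-154-3p (−0.54 to 0.075), miR-323-3p (−0.10 to 0.17), miR-376a-5p (−0.43 to 0.071), miR-379-3p (−0.14 to 0.39), miR-381-3p (−0.29 to 0.032), miR-382-5p (−0.21 to 0.14) and miR-409-3p (−0.0053 to 0.13). The ranges of others were −0.75 to −0.08 for miR-329-3p, −0.66 to −0.28 for miR-410-5p, −0.26 to −0.05 for miR-487b-3p, 0.05 to 0.26 for miR-411-5p, 0.08 to 0.31 for miR-541-5p, 0.13 to 0.42 for miR-410-3p, 0.15 to 0.45 for miR-668-3p, 0.24 to 0.53 for miR-369-3p, 0.30 to 0.55 for miR-300-3p and 0.33 to 0.97 for miR-667-3p. In all, 14 of the 22 named members kept their direction in every alternative, the scaling to the cluster sum included. Members with an unadjusted p under 0.05 numbered 0, 6, 3 and 1 without B6 replicates 1 to 4, in order. They numbered 4, 8, 4 and 2 without BTBR replicates 1 to 4. The members' median was 0.08, 0.20, 0.11 and 0.14 without these B6 mice, against −0.04, 0.04, −0.03 and −0.02 over all miRNAs. Without the BTBR mice it was 0.15, 0.20, 0.15 and 0.12, against −0.01, −0.03, 0.01 and −0.04. The counts were not set against the share of all miRNAs in these fits.

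Mice with the same replicate number did not deviate together: over all miRNAs the correlations were 0.05, −0.07, −0.15 and −0.15, and not every mouse correlated best with its own number. The block changed no call of a member. Members under 100 CPM had a median SE of 0.38 against 0.23 for the others, which limits what could be detected among them.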
